A study of Homo sapiens with 6 samples.

Results

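Protein phosphatase 2A (PP2A) is a serine/threonine phosphatase assembled from a scaffold subunit, a catalytic subunit and an exchangeable regulatory subunit that directs the enzyme to its substrates. The regulatory subunits come in families, among them B55 (PPP2R2 genes) and B56 (PPP2R5 genes), and B56 subunits recruit PP2A to proteins of growth signalling, chromosome segregation and the response to DNA damage. PP2A opposes kinases that drive many tumours, gliomas included, and is often counted among tumour suppressors. The genes described here are 10 PP2A subunits out of 18417 genes with a named probe set: the 5 B56 genes PPP2R5A to PPP2R5E, the scaffold genes PPP2R1A and PPP2R1B, the catalytic genes PPP2CA and PPP2CB, and the B55 gene PPP2R2A. They were chosen by name from the subunit families after earlier results on the same arrays were known, and the response of PPP2R5A and PPP2R1B to the microRNA was among those results. Differences between microRNA and control are therefore given for these genes as a description.

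The RNA came from 3 established glioblastoma cell lines, A172, T98G and U87MG, and was hybridised to Affymetrix Human Gene 1.0 ST arrays. Each line was transfected either with pre-miR338-5p, a precursor that raises the microRNA miR-338-5p and is called the mimic below, or with a negative control, and harvested 24 hours later, which gave 3 arrays per group with 1 array per line. The design states that targets of the microRNA were sought. Whether an array came from 1 culture or from several is not given in the sources used here, and the level of miR-338-5p itself was not analysed here.

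A microRNA pairs with messenger RNAs mainly through its seed, bases 2 to 8, and messages with matching sites are usually lowered. The transfected microRNA is shown because all comparisons below turn on it. Its sequence in RefSeq (GRCh38.p14) lies on the minus strand at chr17:81125923-81125944, and the hairpin that yields it spans chr17:81125883-81125949. Capitals mark the seed in the mature form and the mature 5p arm in the hairpin, both written 5′ to 3′.
miR-338-5p: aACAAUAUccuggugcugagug
MIR338 hairpin: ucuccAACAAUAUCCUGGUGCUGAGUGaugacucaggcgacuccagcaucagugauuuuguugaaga
The message sequence complementary to this seed is AUAUUGU. In the RefSeq table used, 1 mature human microRNA carries this seed, miR-338-5p itself. The 3′ UTRs of the subunit genes were not used here, so matches to it were not looked for.

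Values are RMA log2 expression, on which a difference of 1 is a doubling. Array medians over all probe sets lay between 5.06 and 5.14, and genes with a mean below 4.28, the lowest 25%, were not tested, which left 13813 genes. All 10 subunits have 1 probe set each and passed this filter. The mesenchymal glioma genes VIM and CD44 stood high on every array, at 11.9 to 12.6 and 11.5 to 11.9, and EGFR at 8.09 or more. EGFR also had the widest mean difference between mimic and control of the marker genes, at -0.46. The astrocyte gene GFAP stood at 5.07 to 5.39, close to the array medians, and S100B below the filter level on all 6 arrays. SOX2 lay at 4.03 to 4.66, OLIG2 at 4.06 to 4.96 and NES at 5.16 to 7.29. Of the leukocyte markers AIF1 was below it on all 6 arrays, PTPRC above it on 1 and CD14 above it on 3. Of the endothelial markers PECAM1 and VWF were below it on all 6 arrays and CDH5 above it on 4. The neuronal gene SNAP25 and the epithelial gene KRT8 reached 8.11 and 10.5 on their highest arrays. Of the other neuronal and epithelial markers, the highest arrays stood at 6.67 (SYT1), 5.28 (RBFOX3), 4.98 (EPCAM) and 4.35 (CDH1). For each of the other cell types' marker lists the mean level on mimic arrays overlapped that on control arrays.

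With the mimic, PPP2R5A was lower and PPP2R1B higher in every line, while the other 8 subunits stayed within 0.23 of their control on the log2 scale in each line. In limma's fit over all genes with the line as a block, 1 subunit passed the adjusted threshold of 0.05 as lower, PPP2R5A, where 0.789% of tested genes did, and 1 as higher, PPP2R1B, where 0.319% did. The subunits were chosen with this contrast known, so nothing is read from these counts. Without the U87MG arrays 0 subunits passed, as did 0 genes of the whole array, while 1339 genes had an unadjusted p under 0.05 in limma. PPP2R5A then stood at -1.64 and PPP2R1B at 0.80.

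**Figure D1:**
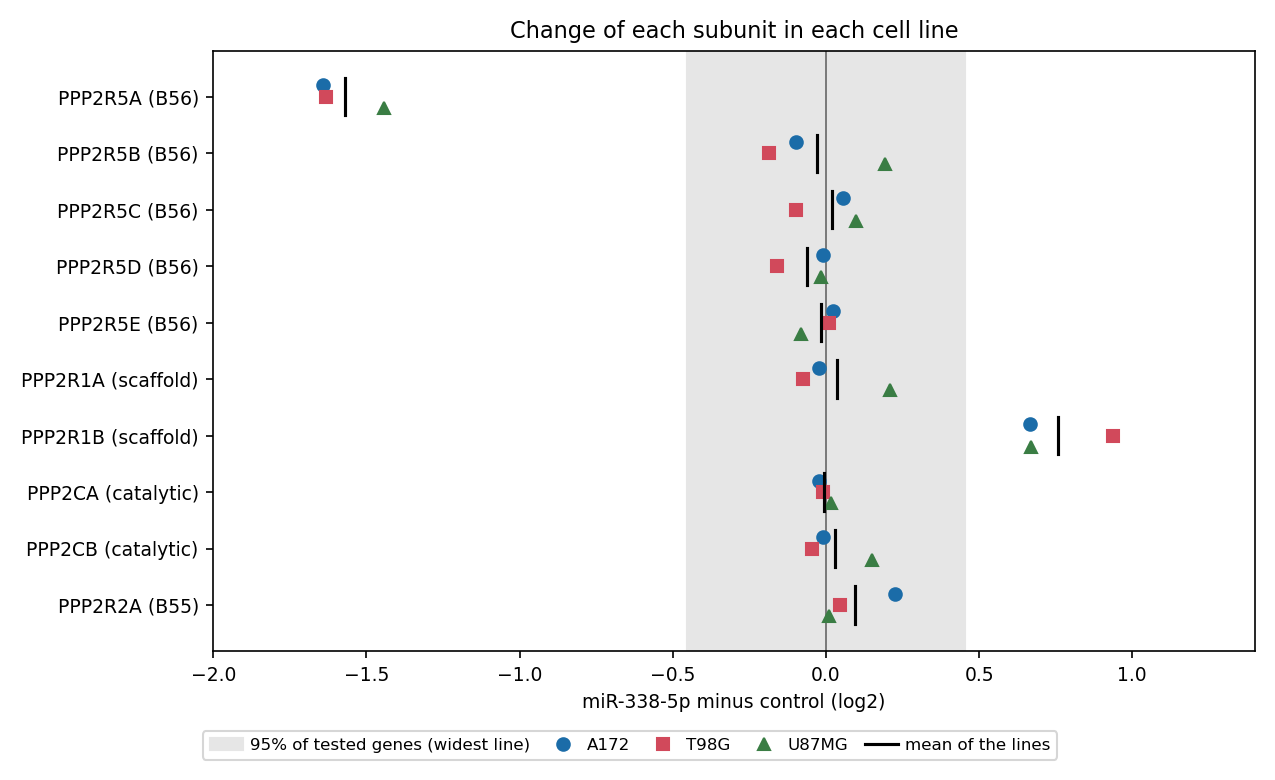
Difference between mimic and control (log2, horizontal) for the 10 subunits in A172, T98G and U87MG (1 point per line) with the mean of the lines as a bar. The grey band is the size that 95% of tested genes stay under in T98G, the widest of the lines, at 0.45; PPP2R5A lies left of it and PPP2R1B right of it in all 3 lines.

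PPP2R5A encodes B56 alpha, a regulatory subunit known for directing PP2A to substrates such as MYC. Its level was 5.17 in A172, 5.77 in T98G and 5.67 in U87MG with the mimic, against 6.81, 7.41 and 7.11 in the controls of the same lines. The highest mimic array was thus below the lowest control array. The mean was 5.54 ± 0.32 with the mimic and 7.11 ± 0.30 with the control (SD, n = 3 each), a difference of -1.57 ± 0.11. On the linear scale its message with the mimic was 33.6% of its control on average, with 32.1% in A172, 32.3% in T98G and 36.8% in U87MG. PPP2R5A was the second lowest change of all 13813 tested genes in the mean over lines. Within single lines its change ranked 3 from the lowest in A172 and 6 in both T98G and U87MG. Its level of 5.17 in A172 with the mimic was close to that array's median of 5.14.

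The other B56 genes, which encode subunits that bind the same scaffold and catalytic subunits, gave no common shift. PPP2R5B, B56 beta, was measured at 6.07, 5.32 and 6.05 with the mimic and 6.16, 5.51 and 5.86 with the control in A172, T98G and U87MG. Its difference was negative in A172 and T98G and positive in U87MG, with a mean of -0.03 ± 0.20 (SD, n = 3). PPP2R5C, B56 gamma, a subunit linked to dephosphorylation of p53 after DNA damage, differed by 0.02 ± 0.10 and ranged from -0.10 in T98G to 0.10 in U87MG. PPP2R5D, B56 delta, differed by -0.06 ± 0.09 and PPP2R5E, B56 epsilon, by -0.02 ± 0.06. The mimic and control arrays of each of these 4 genes overlapped. PPP2R5A minus PPP2R5D, the B56 gene with the next lowest mean, gave -1.51 ± 0.11, and PPP2R5A minus PPP2R5C gave -1.59 ± 0.09. These differences consist mostly of the lower PPP2R5A that was known when the genes were chosen. Over the 5 B56 genes the median difference was -0.03, and 0.0068 over all genes tested.

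PPP2R1A and PPP2R1B encode the alpha and beta forms of the scaffold, the HEAT-repeat protein on which catalytic and regulatory subunits assemble. PPP2R1B was measured at 8.22 in A172, 8.60 in T98G and 7.87 in U87MG with the mimic, against 7.56, 7.66 and 7.21 with the control. All mimic arrays were above all control arrays, and mimic exceeded control by 0.67 within A172, 0.94 within T98G and 0.67 within U87MG. The mean was 8.23 ± 0.36 with the mimic and 7.47 ± 0.24 with the control (SD, n = 3 each), a difference of 0.76 ± 0.16 or 1.69-fold. Its rank from the highest change was 13 of 13813 in the mean over lines, and 104 in A172, 14 in T98G and 59 in U87MG.

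PPP2R1A was measured at 9.71, 9.23 and 9.35 with the mimic and 9.73, 9.31 and 9.14 with the control, in the same order of lines. Its difference of 0.04 ± 0.15 had no common sign, since it was -0.02 in A172, -0.08 in T98G and 0.21 in U87MG. The change of PPP2R1A minus that of PPP2R1B was -0.69 in A172, -1.01 in T98G and -0.46 in U87MG. PPP2R1B thus changed more than PPP2R1A in each line, and this difference consists mostly of the higher PPP2R1B that was known when the genes were chosen.

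The catalytic subunits PPP2CA and PPP2CB encode the alpha and beta forms of the enzyme's active subunit. PPP2CA stood at 10.9, 10.9 and 10.6 in A172, T98G and U87MG with the mimic and at the same rounded values with the control, and its difference of -0.0055 ± 0.020 had the smallest spread of the 10 subunits. PPP2CB was measured at 8.28, 8.31 and 8.45 with the mimic and 8.29, 8.35 and 8.30 with the control, a difference of 0.03 ± 0.10. The coding sequences of this pair are much alike, and whether their probes share signal was not tested. The B55 gene PPP2R2A, whose subunit directs PP2A to mitotic and cytoskeletal substrates, differed by 0.09 ± 0.12, with 0.23 in A172, 0.05 in T98G and 0.0088 in U87MG.

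Set by role, the median difference was -0.03 for B56, 0.40 for the scaffold pair and 0.01 for the catalytic pair. The scaffold value lies between the 2 forms and describes neither of them. The medians of all 10 subunits (0.0064) and of the catalytic pair (0.01) turned negative when arrays were centred on their medians, at -0.0098 and -0.0036, so neither has a direction. Mimic and control arrays did not overlap for 2 of the 10 subunits, PPP2R5A and PPP2R1B, against 2.96% of tested genes. Counted in each line alone, a difference of at least 0.5 in either direction was reached by 2 of 10 subunits in A172, T98G and U87MG, the same pair each time, against 3.68%, 3.71% and 3.22% of tested genes. These counts rest on the contrast that was known when the subunits were chosen.

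**Figure D2:**
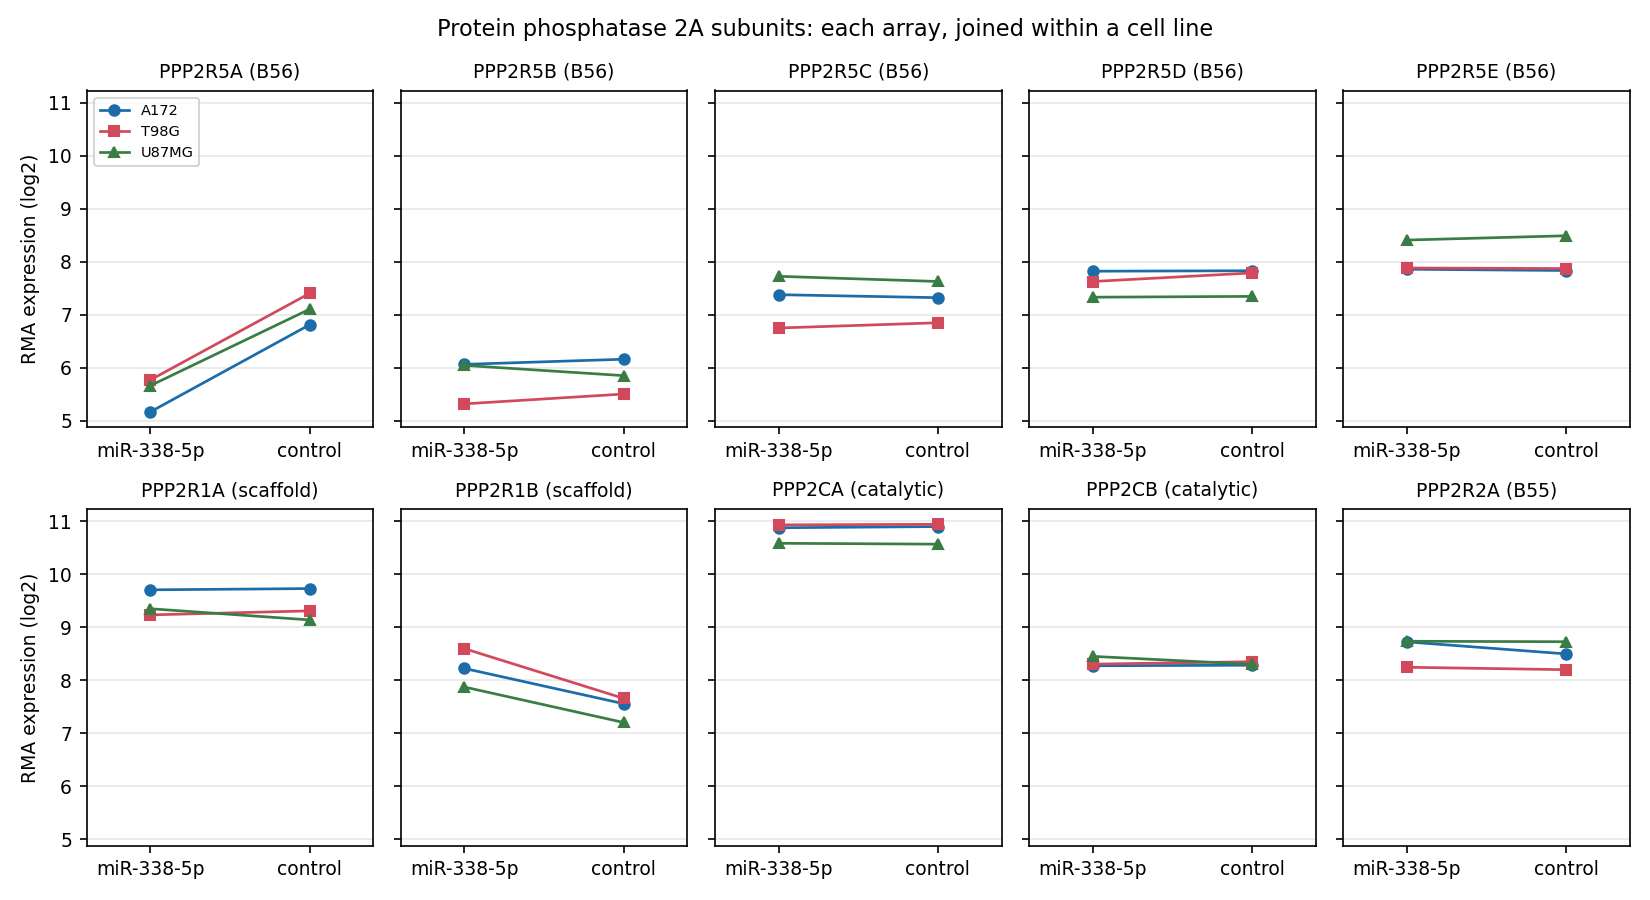
RMA level (log2, vertical) of each subunit on each array, with mimic on the left and control on the right of every panel and the arrays of a line joined. PPP2R5A lies lower and PPP2R1B higher with the mimic than with the control in all lines, and the other panels are nearly flat, with PPP2CA between 10.6 and 10.9.

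The lines were then compared with each other, a contrast that did not enter the choice of genes, with the group as an additive term so that the 2 arrays of a line served as its replicates. By limma's F test 9 of 10 subunits differed between lines at an adjusted p under 0.05, against 67.5% of all tested genes. The range of the line means had a median of 0.55 over the subunits and 0.54 over all tested genes, so the subunits differed between lines about as much as a typical gene. Pairwise, 5 of 10 passed for A172 minus T98G, 7 for A172 minus U87MG and 7 for T98G minus U87MG, against 50.5%, 54.2% and 47.1% of tested genes.

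PPP2R5C had the widest spread between lines. It stood at 7.38, 6.75 and 7.73 in A172, T98G and U87MG with the mimic and at 7.32, 6.85 and 7.63 with the control. No array of a line overlapped those of another line, and each pair of lines passed. T98G minus U87MG was -0.88 (adjusted p = 0.000413), A172 minus T98G 0.55 (adjusted p = 0.0031) and A172 minus U87MG -0.33 (adjusted p = 0.0258). PPP2R5B also had its lowest level in T98G, where it was 0.70 below A172 (adjusted p = 0.00253) and 0.54 below U87MG (adjusted p = 0.00891). A172 and U87MG did not differ detectably in PPP2R5B, at 0.16 (adjusted p = 0.269).

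The remaining B56 genes had other orders. PPP2R5E was highest in U87MG, with A172 minus U87MG at -0.60 (adjusted p = 0.00144) and T98G minus U87MG at -0.57 (adjusted p = 0.00213), while A172 minus T98G was -0.03 (adjusted p = 0.807). PPP2R5D was lowest in U87MG, with A172 minus U87MG at 0.49 (adjusted p = 0.00447) and T98G minus U87MG at 0.37 (adjusted p = 0.0165), and A172 minus T98G at 0.12 (adjusted p = 0.331). PPP2R5A was lowest in A172 on both kinds of array, by -0.60 against T98G (adjusted p = 0.00233) and -0.39 against U87MG (adjusted p = 0.0132). T98G minus U87MG was 0.20 for PPP2R5A and did not pass (adjusted p = 0.133). The 5 B56 genes therefore shared no order of lines.

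Of the scaffold genes, PPP2R1A was highest in A172, by 0.45 over T98G (adjusted p = 0.0115) and 0.47 over U87MG (adjusted p = 0.00854), with T98G minus U87MG at 0.03 (adjusted p = 0.859). PPP2R1B was lowest in U87MG, with A172 minus U87MG at 0.35 (adjusted p = 0.0286) and T98G minus U87MG at 0.59 (adjusted p = 0.00404), and A172 minus T98G at -0.24 (adjusted p = 0.106). PPP2CA was lowest in U87MG too, by 0.31 against A172 (adjusted p = 0.0212) and 0.36 against T98G (adjusted p = 0.0138). PPP2R2A was lowest in T98G, by 0.39 against A172 (adjusted p = 0.0152) and 0.51 against U87MG (adjusted p = 0.00542). PPP2CB was the subunit that did not pass, with line means within 0.097 of each other (F test adjusted p = 0.651).

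Several of these calls depended on 1 array. Without the A172 control array the F test for PPP2R1A gave an adjusted p of 0.0904. Without the U87MG control array PPP2R5D had 0.067 and PPP2CA 0.115, and without the U87MG mimic array PPP2R1B had 0.0558 and PPP2CA 0.0875. With the group left out of the model the changes with the mimic enter the residual spread, and PPP2R5A (0.751) and PPP2R1B (0.376) were not called, although their differences between lines were 0.60 and 0.59.

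**Figure D3:**
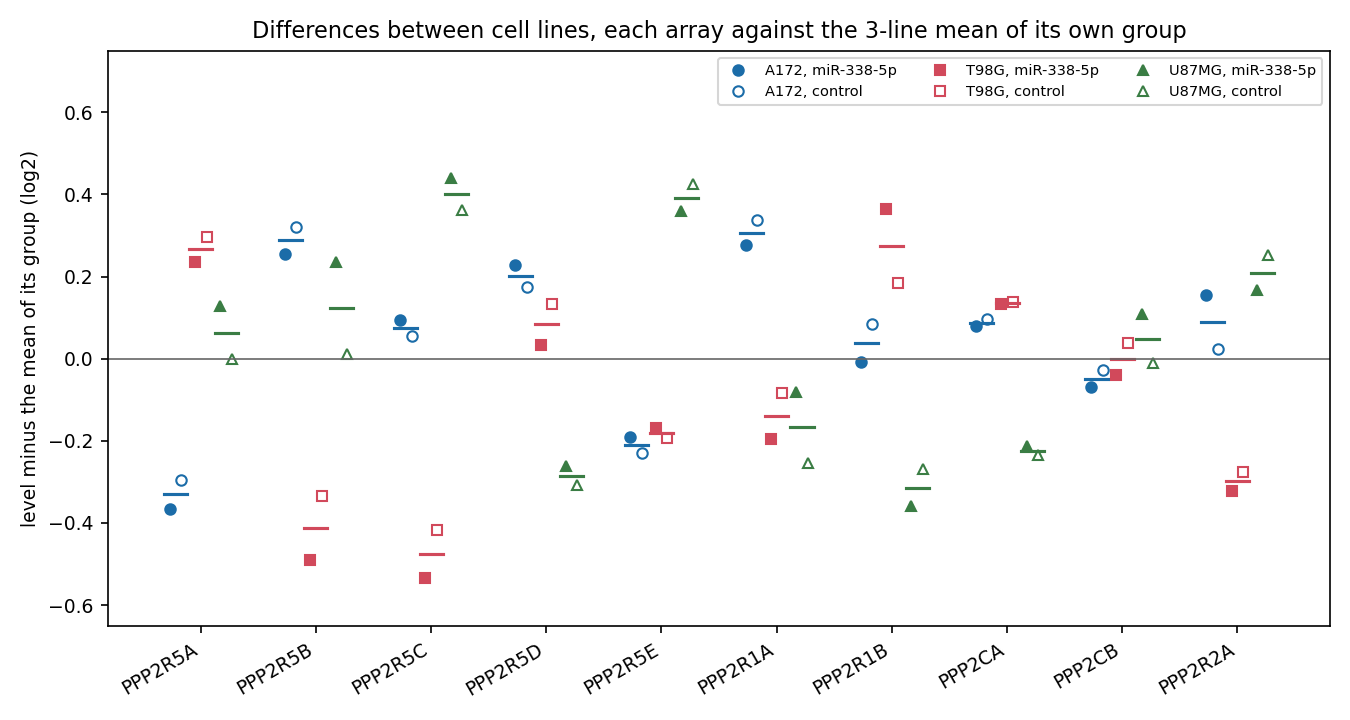
Level of each subunit minus the 3-line mean of its own group (log2, vertical), with filled points for mimic arrays, open points for control arrays and a bar for their mean in each line. T98G lies lowest for PPP2R5B, PPP2R5C and PPP2R2A, U87MG for PPP2R5D, PPP2R1B and PPP2CA, and the lines of PPP2CB lie together within 0.097.

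Beyond the subunits, 58 other genes of PP2A and its relatives were listed in 5 groups, and 56 of them were measured and tested. With the mimic 1 passed as higher and 2 as lower, against 0.319% and 0.789% of tested genes. At an unadjusted p under 0.05, the looser count given for some lists below, 1635 of 13813 tested genes (11.8%) passed. The lists were drawn up with earlier results on these arrays known, the rise of BOD1 included. Of 8 other regulatory subunits (PPP2R2B, PPP2R2C, PPP2R2D, PPP2R3A, PPP2R3C and the striatins STRN, STRN3 and STRN4) 0 passed in limma, and their median difference was 0.03. At an unadjusted p under 0.05 the count was 0 of 8, and at the share of all genes a list of this size would hold about 1, so nothing is read from it. The widest was that of PPP2R2B, a B55 subunit of neurons, at 0.24 ± 0.25 (adjusted p = 0.448).

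Among 13 proteins that assemble, methylate or inhibit PP2A, BOD1 rose. BOD1 is a kinetochore protein that inhibits PP2A holding a B56 subunit. Its level was 8.07 in A172, 8.59 in T98G and 7.97 in U87MG with the mimic, against 7.23, 7.78 and 7.24 with the control. The groups did not overlap, and the difference was 0.79 ± 0.07 (SD, n = 3; adjusted p = 0.0118), or 1.73-fold. The other 12, among them the methyltransferase LCMT1, the methylesterase PPME1 and the inhibitors SET and CIP2A, did not pass, and the list median was -0.00012. Of 10 partners of B56 subunits, such as BUB1B, the shugoshins SGO1 and SGO2 and AXIN1, 0 passed in limma and 0 had an unadjusted p under 0.05, a count from which, at this list size, nothing is read either. The widest difference there was that of SGO1, at -0.15 ± 0.02 (adjusted p = 0.469), and the median 0.06.

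Among 16 genes of the related phosphatases PP1, PP4, PP5 and PP6, PPP6R3, a regulatory subunit of PP6, fell. It was at 8.45, 8.60 and 8.75 in A172, T98G and U87MG with the mimic, against 9.05, 9.30 and 9.34 with the control. The groups did not overlap, and the difference was -0.63 ± 0.06 (SD, n = 3; adjusted p = 0.0209). The list median was 0.06, and 5 of its 16 genes had an unadjusted p under 0.05, against 11.8% of tested genes, a difference that was not tested. ANKRD52 and PPP1CC of this list rose in all 3 lines, by 0.43 ± 0.14 and 0.35 ± 0.01. In limma's main fit neither passed (adjusted p = 0.0875 and 0.0963). Both passed with the lowest 50% of genes left out (adjusted p = 0.022 and 0.0251). Both also passed with a variance prior that follows expression (adjusted p = 0.00315 and 0.00098). Among 9 measured partners of the striatins in the STRIPAK complex, where PP2A is bound to kinases, SIKE1 fell. It stood at 6.98, 7.22 and 7.42 with the mimic and at 7.52, 7.72 and 8.23 with the control, a difference of -0.62 ± 0.16 (adjusted p = 0.0326), and the list median was -0.0038.

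These calls depended on the lines used. Without the A172 arrays PPP6R3 had an adjusted p of 0.0659 and SIKE1 0.085, and without the U87MG arrays the values were 0.109 for BOD1, 0.156 for PPP6R3 and 0.196 for SIKE1. With no filter on dim genes SIKE1 had 0.0692. BOD1 stayed higher and PPP6R3 and SIKE1 lower in the mean of each of these fits.

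**Figure D4:**
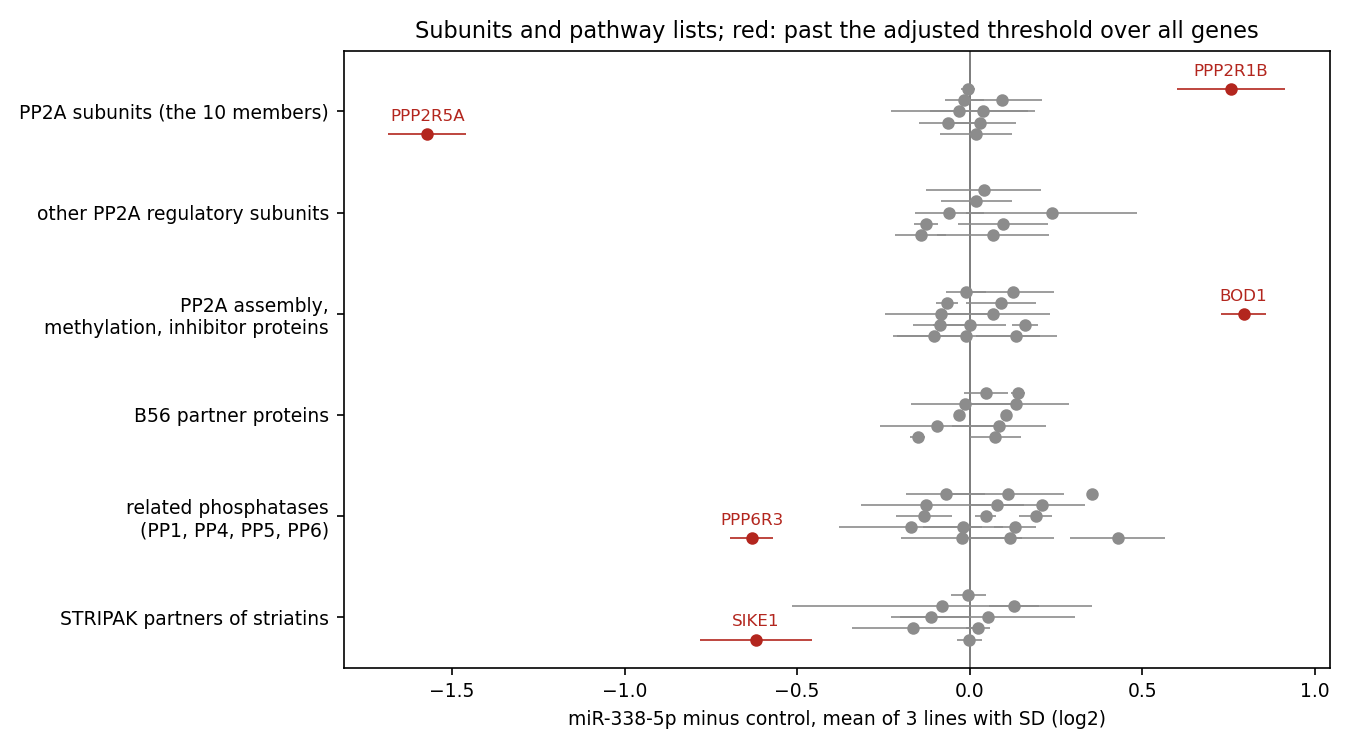
Mean difference between mimic and control over the 3 lines (log2, horizontal; bars are SD) for the 10 subunits and the genes of the 5 lists, 1 point per gene. Genes past the adjusted threshold over all genes are red and named, with BOD1 at 0.79, PPP6R3 at -0.63 and SIKE1 at -0.62 outside the subunits.

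The genes whose differences in the 3 lines were nearest to those of PPP2R5A, by Euclidean distance, were SCML1 (distance 0.273), MMD (0.349) and RAB1A (0.372), a small GTPase of the early secretory pathway. With A172, T98G and U87MG in that order, SCML1 differed by -1.41, -1.66 and -1.59 and RAB1A by -1.60, -1.91 and -1.68. MMD differed by -1.33, -1.79 and -1.47, and its lowest array, at 3.92, stood below the filter level. Nearest to PPP2R1B were ZNHIT6 (0.109), BOD1 (0.225) and DNMT3B (0.243), a DNA methyltransferase. ZNHIT6 differed by 0.74, 0.92 and 0.59, BOD1 by 0.85, 0.81 and 0.72, and DNMT3B by 0.73, 0.77 and 0.50. Each distance rests on 3 values, and a gene of such large change has few others near it.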

How the data were processed

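Per the submitters' processing notes, the authors made the deposited log2 values with RMA (package oligo, R 3.0.1), which quantile-normalizes arrays, so that a shift of most genes in 1 direction would be removed. No source used here names filters or batches, so whether a batch goes with the group is not known. The 33297 probe sets were named through the platform annotation, which gave 1 symbol for 19460; 19429 of these were matched by gene ID to RefSeq (GRCh38.p14), used for names only. The brightest probe set stood for a gene. Genes were tested with limma 3.58.1 in R 4.3.3 (lmFit, eBayes, Benjamini-Hochberg over 13813 genes, two-sided, threshold 0.05), checked on simulated data. The line of each array, given in the labels, pairs mimic and control; deviations from the group means correlated within lines at r = 0.951 to 0.958. The mimic was tested with the line as a block and the lines with the group as a term. There are 3 arrays per group and 2 residual degrees of freedom, which limits the precision. The p-values rest on how far the difference between mimic and control varied between lines. For each gene limma draws this spread towards that of all genes, which gave a median of 6.56 total degrees of freedom in the mimic fit. Members, lists and rules were chosen with earlier results of these data known. Named were all members, every list gene past the threshold in the main or another fit, the widest of each list, and the 3 genes nearest PPP2R5A and PPP2R1B. Alternatives were other filters, scalings, variance priors and probe set summaries, the model without its block, and leaving out lines or arrays.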

Additional observations from a re-analysis of the deposited data

How the results depend on the processing

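The differences of the 10 subunits and the medians by role moved by less than the spread between lines under each scaling. Without each line they moved by less than it too. A mean of 3 values always moves by less than their SD when 1 is left out. For the subunits nothing is therefore read from the size of that move. PPP2R5A ranged from -1.64 to -1.54 and PPP2R1B from 0.67 to 0.80 over the fits without a line. The count of subunits called with the mimic was 2, 0 with no replicate block (cell line left out of the model), and 0 to 2 without 1 line (0 without U87MG). Over the whole array limma called 153 genes, 0 with no replicate block (127 at an unadjusted p under 0.05) and 0 without U87MG (1339 at an unadjusted p under 0.05). Of the subunits, 2 were under an unadjusted 0.05 in both of these fits, and of the list genes 3 and 7. Each fit with 2 lines has fewer residual degrees of freedom. The others called 64 genes without A172 and 117 without T98G, with 2 subunits called in each. Why 0 were called without U87MG was not tested. The count of list genes called was 3. It was 5 with the lowest 50% of genes left out and 5 with a variance prior that follows expression. ANKRD52 and PPP1CC joined the 3 in each of those fits. The count was 0 with no replicate block and 0 to 3 without 1 line. The number of subunits that differed between lines was 7 to 9 without 1 array and in the other fits, 8 of them with the lowest 50% of genes left out, a filter that PPP2R5B did not pass. The mean of all probe sets changed no subunit, since each has 1.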
